A study of Homo sapiens with 12 samples.

Results

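Genes of ribosome biogenesis and MYC-driven growth were followed across the MDA-231-LM2 transcriptomes. They are MYC itself, 5 multifunctional nucleolar proteins, 3 box C/D and 3 box H/ACA small nucleolar ribonucleoprotein (snoRNP) proteins, 11 factors of small subunit assembly, 9 of large subunit assembly, 6 genes of RNA polymerase I transcription and 2 enzymes of polyamine synthesis. The 40 genes were taken by symbol from a given list, whose rule names genes and sets no measured threshold, and all 40 were found among the 21574 features of the deposited expression table. All 40 also passed the filter on low values, a TPM (a length-corrected relative abundance) of 1 or higher in 3 or more libraries, which kept 13071 features.

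MDA-231-LM2 is a lung-metastatic derivative of MDA-MB-231, an established line of human breast cancer. The study has 4 groups of 3 libraries, 12 in all: Ctrl cells, Ctrl cells with IGF1, TMEM216 cells and TMEM216 cells with IGF1, so that all groups share the line and differ in the TMEM216 label and in IGF1. TMEM216 encodes a transmembrane protein found at the base of cilia, and IGF1 is a growth factor that acts through the receptor IGF1R. How TMEM216 was manipulated, how much IGF1 was given and for how long are not in the labels. Separate cultures are not stated for the replicates either, so the p-values cover only the scatter of these libraries, possibly a technical one.

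TMEM216 transcript lay between 24.0 and 30.1 TPM in the 6 Ctrl libraries and between 163 and 249.6 TPM in the 6 libraries labelled TMEM216. Markers of the line were abundant, with a mean of 6309 TPM for VIM and 448 TPM for CD44. Of the genes expected to be low, ESR1, PGR and CDH1 did not exceed 0.204 TPM, while ERBB3 and EPCAM passed the filter on low values. Among markers of other cell types, PTPRC did not exceed 0.101 TPM, and CD3E, HBB, ADIPOQ and LEP were listed at 0. CD68 was not low and made up nearly all of the summed level of these markers, given at the end of the results. Cytoplasmic ribosomal protein genes, 86 of which were found and none of which is a member, held 16.9% of the summed TPM of Ctrl+IGF1 replicate 3, 14.5% of that of TMEM216 replicate 1 and 12.4% to 14.4% in the other libraries. Those 2 libraries also had the lowest scores on the first principal component (-31.0 and -19.4). TMEM216 replicate 3 and TMEM216+IGF1 replicate 2 stood at its other end (18.2 and 18.1). Values without Ctrl+IGF1 replicate 3 and TMEM216 replicate 1 are given where a result rests on them.

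Ribosomes are built in the nucleolus. RNA polymerase I transcribes the ribosomal RNA precursor with the help of UBTF and RRN3, snoRNPs guide its chemical modification, and assembly factors fold, cleave and export the small and large subunits. MYC is a transcription factor that pairs with MAX on E-box sequences and is known to drive transcription of many of these genes, and of the polyamine enzymes ODC1 and SRM. Growth factor signalling is known to feed into the same programme.

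The E-box CACGTG, which reads the same on both strands, was looked up in the RefSeq promoter windows (GRCh38.p14, 250 bases before to 50 after each start; the bases are printed because MYC is a member and these letters are the site it is known for). Windows were found for 32 of the 40 members; those of MYC, NOLC1, NOP58, BOP1, RRP1B, RRP12, RRS1 and POLR1E are not shown here. The 6 letters stood in 15 of the 32 members (46.9%), against 8.77% of the 27305 genes with a window and 12.6% of the 10109 of them among the tested features. By role, the letters were found in 7 of 10 small subunit factors, 2 of 6 large subunit factors, 2 of 4 nucleolar proteins, 1 of 2 box C/D and 1 of 3 box H/ACA proteins, both polyamine enzymes and 0 of 5 RNA polymerase I genes. A match describes these letters only and says nothing of binding. The following 30-base stretches, on the strand of the gene and with CACGTG in capitals, are those of members that lead a comparison below and an example of each other role that has a match. Their order is SRM at chr1:11060200-11060229 on the minus strand, ODC1 at chr2:10448024-10448053 and chr2:10447990-10448019 (minus), BYSL at chr6:41921515-41921544 (plus), UTP20 at chr12:101280083-101280112 (plus), NOP14 at chr4:2963374-2963403 (minus), RRP9 at chr3:51941892-51941921 (minus), GAR1 at chr4:109815781-109815810 (plus), FBL at chr19:39846356-39846385 (minus), GNL3 at chr3:52686026-52686055 (plus) and PES1 at chr22:30591880-30591909 (minus).
SRM: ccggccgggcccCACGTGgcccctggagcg
ODC1 before the start: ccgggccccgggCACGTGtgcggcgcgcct
ODC1 after the start: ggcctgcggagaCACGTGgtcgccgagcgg
BYSL: ttcttcagtcccCACGTGcgatccttcccg
UTP20: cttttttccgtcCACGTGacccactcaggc
NOP14: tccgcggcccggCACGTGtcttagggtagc
RRP9: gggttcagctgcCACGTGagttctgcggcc
GAR1: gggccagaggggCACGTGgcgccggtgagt
FBL: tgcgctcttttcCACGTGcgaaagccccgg
GNL3: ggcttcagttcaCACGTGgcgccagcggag
PES1: tccttggcagggCACGTGcgggaggaagtg
ODC1 was the only member with 2 matches in its window. The match of SRM began 199 bases and the first of ODC1 29 bases before the start, that of UTP20 also lay before the start, that of RRP9 lay across it, and those of BYSL, NOP14, GAR1, FBL, GNL3 and PES1 lay in the first transcribed bases.

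The members were abundant transcripts with a small spread. Their median level was 117 TPM, against 23.5 TPM over all 13071 tested features, and together they took 0.908% to 1.01% of all TPM in each library. NPM1, a histone and ribosome chaperone of the nucleolus, stood highest with 2561 ± 228 TPM (mean ± SD, n = 12 libraries). NCL, which binds the ribosomal RNA precursor, followed with 1030.0 ± 83.1 TPM, and NOP56 with 976 ± 71.9 TPM and FBL, the methyltransferase of box C/D snoRNPs, with 648 ± 29.96 TPM came next. NCL and NOP56 overlapped in their ranges over libraries (846 to 1198 and 873 to 1151 TPM), while every library of NPM1 lay above every library of NCL and every library of FBL below every library of NOP56. At the low end stood POLR1B, the second largest subunit of RNA polymerase I (19.3 ± 4.97 TPM), WDR12 (20.1 ± 1.81 TPM), UTP20 (21.1 ± 4.24 TPM) and POLR1A, the largest subunit (26.9 ± 3.69 TPM); the ranges of POLR1B, WDR12 and UTP20 overlapped. MYC lay in between, at 132 ± 14.8 TPM.

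The median SD within groups was 0.11 on the log2(TPM + 1) scale for members, against 0.16 for all tested features and 0.13 for the 7161 features within the members' range of levels. Those 7161 features had a median of 54.9 TPM, against 117 TPM for members, so they were not matched on level. The part of level in the smaller SD was not tested. NHP2, POLR1C, GNL3 and FBL had the smallest SD within groups (0.06, 0.06, 0.06 and 0.07). POLR1B, UTP20, NOP14 and POLR1A had the largest (0.38, 0.30, 0.24 and 0.22).

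No member passed the threshold, an adjusted p of 0.05 over all tested features, in any of 7 contrasts of limma's moderated test on log2(TPM + 1). Over all features, 1.09% passed between TMEM216 and Ctrl without IGF1, 1.61% with IGF1 and 5.22% when averaged over IGF1. IGF1 against none gave 0.0306% in Ctrl, 0.0153% in TMEM216 and 0.0536% on average, and the interaction 0.0153%. A count of 0 of 40 is near these background shares, the widest gap being that of the averaged TMEM216 contrast. At an unadjusted p of at most 0.05, the members numbered 3 of 40 for TMEM216 without IGF1 (13.2% of all features), 4 with IGF1 (15.8%) and 4 on average (20.1%). The same counts were 2 for IGF1 in Ctrl (6.89%), 1 in TMEM216 (4.77%) and 0 on average (5.88%), and 3 for the interaction (5.38%). The intervals bound what these libraries could show: the 95% interval of every member lay within 1 log2 unit of 0 in all 7 contrasts, and within 0.5 for 37 and 34 of the 40 members for TMEM216 without and with IGF1, for 35 each for IGF1 in Ctrl and in TMEM216, for 38 and 40 in the averaged TMEM216 and IGF1 contrasts, and for 32 in the interaction.

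**Figure D1:**
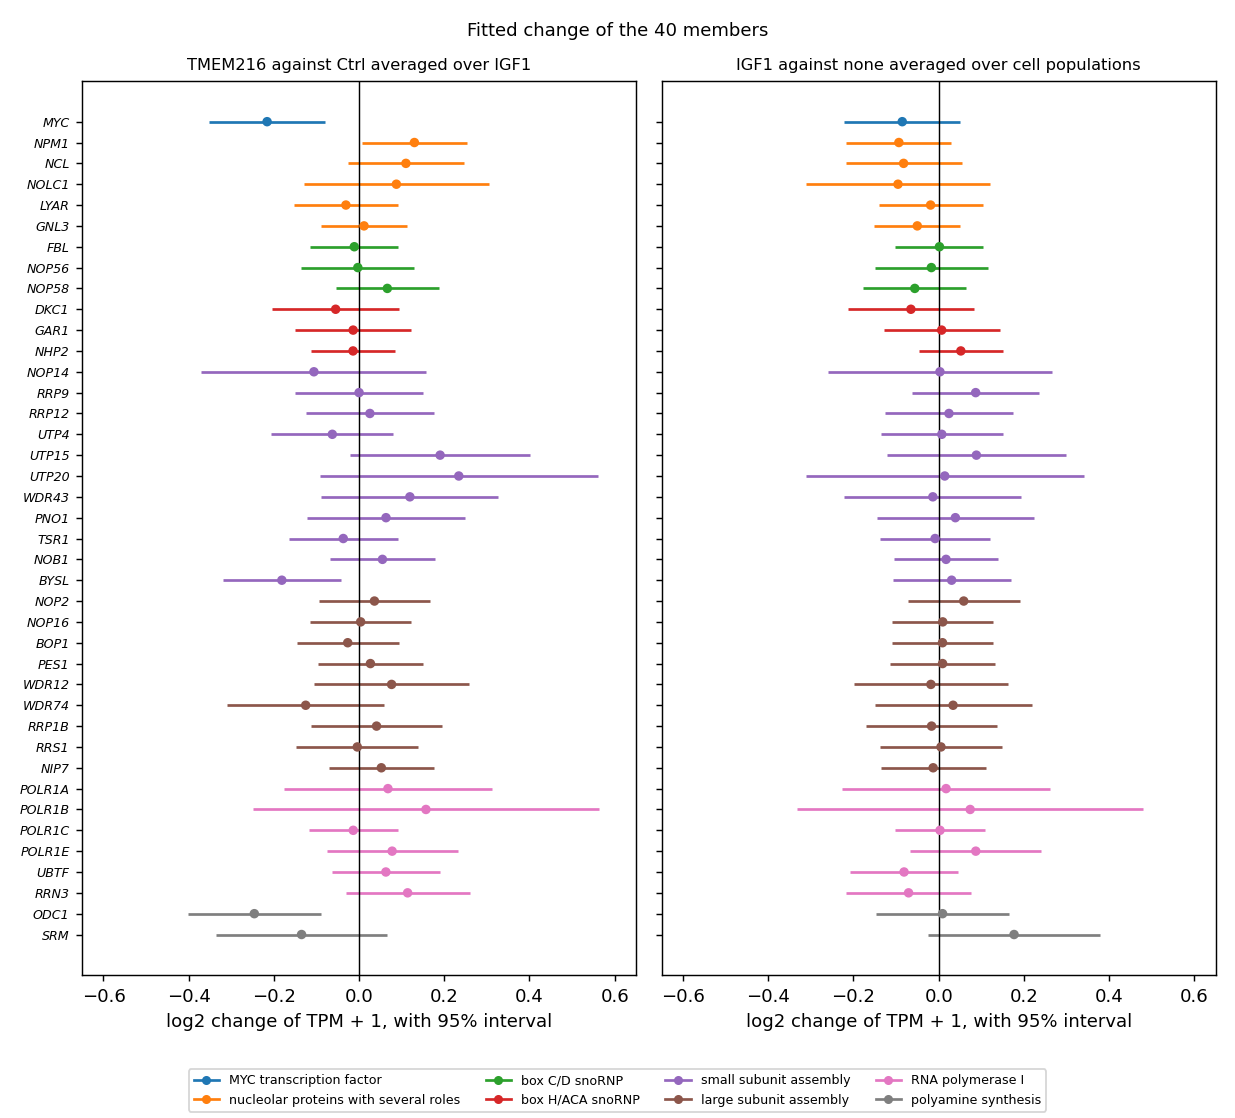
Fitted log2 differences of the 40 members with limma's 95% intervals, coloured by role, for TMEM216 against Ctrl averaged over IGF1 (left) and IGF1 against none averaged over cell populations (right). Every interval on the right lies within 0.5 log2 units of 0, as do 38 of 40 on the left, where MYC has the smallest adjusted p (0.0693).

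MYC was the member with the smallest adjusted p between TMEM216 and Ctrl, both without IGF1 and on average. It read 149, 152 and 151 TPM in Ctrl, 133, 150.2 and 119 TPM in Ctrl+IGF1, 112, 131 and 124 TPM in TMEM216, and 117, 123 and 127 TPM in TMEM216+IGF1. The 3 Ctrl libraries lay above all 6 TMEM216 libraries, while Ctrl+IGF1 ranged across both. Without IGF1 the TMEM216 libraries were 0.81 times as high (log2 difference -0.31, SE 0.09, limma's adjusted p 0.132), and with IGF1 the log2 difference was -0.12 (SE 0.09, adjusted p 0.516), -0.21 without Ctrl+IGF1 replicate 3 and -0.04 without Ctrl+IGF1 replicate 2. Averaged over IGF1 it was -0.22 (SE 0.06, 95% interval -0.35 to -0.08, adjusted p 0.0693), which missed the threshold. That call depended on the processing: the adjusted p was 0.0254 after quantile normalization, 0.0134 after median-of-ratios scaling, 0.0186 without Ctrl+IGF1 replicate 3 and 0.0174 without that library and TMEM216 replicate 1, and it ranged from 0.0134 to 0.167 over 20 alternatives, all with a negative difference. For IGF1 the log2 difference of MYC was -0.18 in Ctrl (SE 0.09, adjusted p 0.673), -0.09 without the 2 libraries named above, 0.01 in TMEM216 (SE 0.09, adjusted p 1; -0.06 without TMEM216 replicate 1), and -0.09 on average (SE 0.06, adjusted p 0.892). Its interaction was 0.18 (SE 0.13, adjusted p 0.754), and 0.04 without the 2 libraries.

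**Figure D2:**
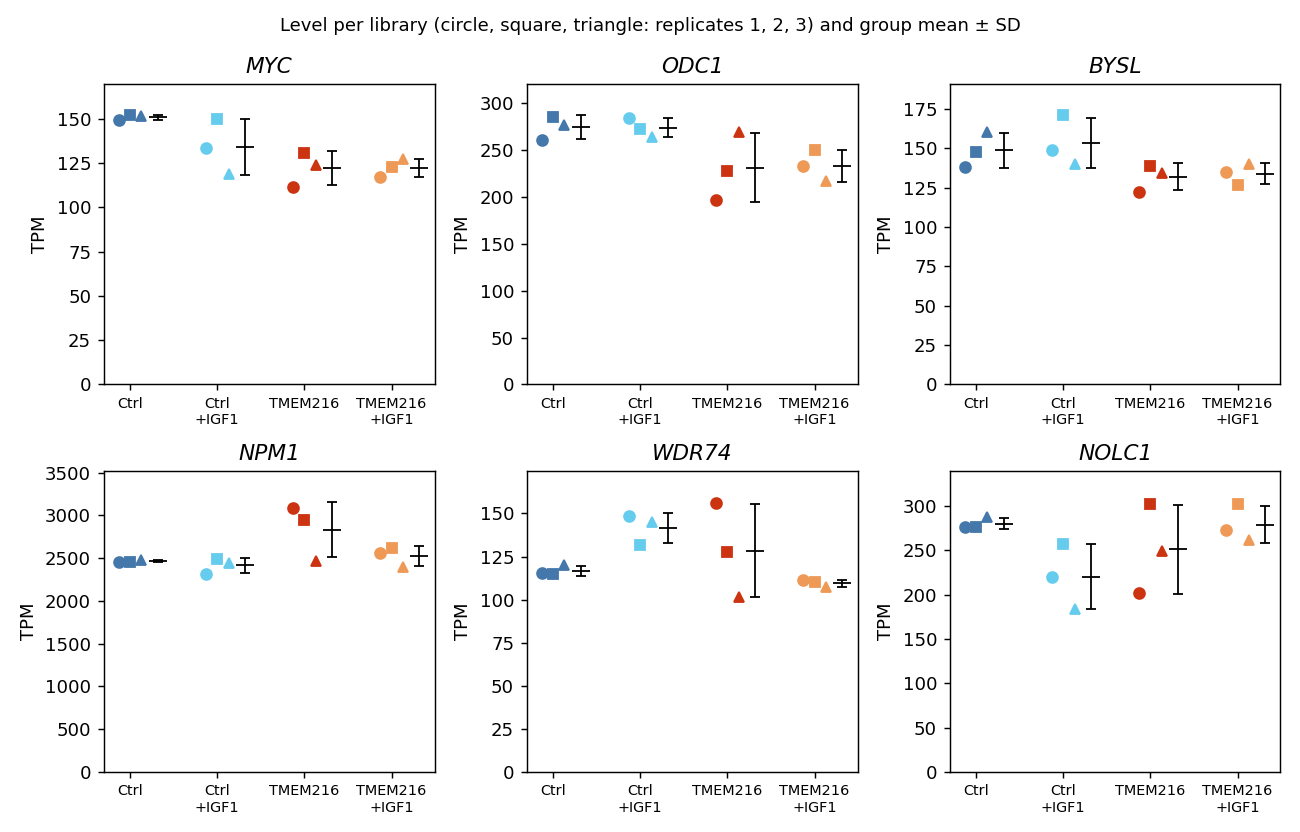
TPM of MYC, ODC1, BYSL, NPM1, WDR74 and NOLC1 in each of the 12 libraries by group, on linear axes from 0; symbols are replicates and the black bars the group mean ± SD (n = 3). The 3 Ctrl libraries of MYC lie above all 6 TMEM216 libraries, and the WDR74 libraries of Ctrl+IGF1 lie above those of Ctrl and of TMEM216+IGF1.

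The polyamine enzymes differed from each other in their pattern. ODC1, which makes putrescine from ornithine and is the rate-limiting step of the pathway, read 261, 286 and 277 TPM in Ctrl, 285, 273 and 264 TPM in Ctrl+IGF1, 197, 228 and 269.6 TPM in TMEM216, and 233, 250.1 and 217 TPM in TMEM216+IGF1. With IGF1 all 3 TMEM216 libraries lay below all 3 Ctrl libraries, and without it TMEM216 replicate 3 lay within the Ctrl range. The log2 difference between TMEM216 and Ctrl was -0.26 without IGF1 (SE 0.10, adjusted p 0.291), -0.23 with it (SE 0.10, adjusted p 0.292) and -0.25 on average (SE 0.07, 95% interval -0.40 to -0.09, adjusted p 0.0713). The average passed after quantile normalization (adjusted p 0.0408) and without TMEM216 replicate 3 (-0.30, adjusted p 0.0143). Without IGF1 the difference was -0.15 when Ctrl+IGF1 replicate 3 and TMEM216 replicate 1 were left out.

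SRM, which makes spermidine from putrescine, read 232, 213 and 190.2 TPM in Ctrl, 235, 190.1 and 296 TPM in Ctrl+IGF1, 199, 178.0 and 195 TPM in TMEM216, and 219, 210.5 and 222 TPM in TMEM216+IGF1. Its highest library was Ctrl+IGF1 replicate 3, the library with the largest ribosomal protein share. For IGF1 the log2 difference was 0.17 in Ctrl (SE 0.13, adjusted p 0.695), and 0.01 without Ctrl+IGF1 replicate 3 and TMEM216 replicate 1. In TMEM216 the libraries with IGF1 all lay above those without it (0.19, SE 0.13, adjusted p 1.00), and on average the difference was 0.18 (SE 0.09, adjusted p 0.847), the smallest adjusted p of any member for IGF1 on average, and 0.11 without the same libraries.

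Among the nucleolar proteins, NPM1 read 2455, 2461 and 2476 TPM in Ctrl, 2320.5, 2493 and 2440.0 TPM in Ctrl+IGF1, 3082, 2953 and 2468 TPM in TMEM216, and 2567, 2625 and 2396 TPM in TMEM216+IGF1. Replicates 1 and 2 of TMEM216 without IGF1 stood above the rest, and replicate 3 lay among the Ctrl values. The log2 difference between TMEM216 and Ctrl without IGF1 was 0.20 (SE 0.08, adjusted p 0.311), the largest positive value of any member there. Without Ctrl+IGF1 replicate 3 and TMEM216 replicate 1 it was 0.13, and UTP20 then had the largest positive value (0.33). Averaged over IGF1 the difference of NPM1 was 0.13 (SE 0.06, adjusted p 0.220), and 0.10 without those 2 libraries. It passed without TMEM216 replicate 3 (0.18, adjusted p 0.0395). For IGF1 the log2 difference was -0.16 in TMEM216 (SE 0.08, adjusted p 1.00; -0.09 without TMEM216 replicate 1) and -0.09 on average (SE 0.06, adjusted p 0.871).

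NOLC1, a nucleolar phosphoprotein that chaperones snoRNPs and RNA polymerase I, had the largest interaction of the members. It read 277, 277 and 287 TPM in Ctrl, 219, 257 and 184 TPM in Ctrl+IGF1, 202, 303 and 249 TPM in TMEM216, and 273, 303 and 262 TPM in TMEM216+IGF1. All Ctrl+IGF1 libraries lay below all Ctrl and all TMEM216+IGF1 libraries, and the lowest readings of all were those of Ctrl+IGF1 replicate 3 and TMEM216 replicate 1. The log2 difference for IGF1 was -0.36 in Ctrl (SE 0.14, adjusted p 0.673) and 0.17 in TMEM216 (SE 0.14, adjusted p 1.00), and the interaction was 0.53 (SE 0.20, adjusted p 0.754). TMEM216 against Ctrl with IGF1 gave 0.35 (SE 0.14, adjusted p 0.258). Without the 2 libraries the interaction was 0.26, and UTP15 then had the largest of the members (0.33). The difference of NOLC1 for IGF1 was then -0.24 in Ctrl and 0.02 in TMEM216, and that between TMEM216 and Ctrl with IGF1 0.23. On average over cell populations, IGF1 gave -0.10 for NOLC1 with all libraries (SE 0.10, adjusted p 0.940).

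The other nucleolar members, NCL, LYAR and GNL3, and the snoRNP proteins had no place among the largest differences of a contrast, apart from GAR1 in the interaction. GAR1, a core protein of box H/ACA snoRNPs, which guide pseudouridylation, had an interaction of -0.23 (SE 0.12, adjusted p 0.754), and -0.11 without the 2 libraries. For TMEM216 averaged over IGF1, the 3 box C/D proteins FBL, NOP56 and NOP58 had a median log2 difference of 0.00 and the 3 box H/ACA proteins DKC1, GAR1 and NHP2 one of -0.01.

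The 11 small subunit factors had their widest spread within groups in UTP20 and NOP14, and UTP15 gave the largest difference between TMEM216 and Ctrl with IGF1 of any member. UTP15, a subunit of the small subunit processome whose exons overlap ANKRA2 on the opposite strand, read 28.2, 27.5 and 32.7 TPM in Ctrl, 25.9, 31.4 and 23.3 TPM in Ctrl+IGF1, 27.5, 28.4 and 30.2 TPM in TMEM216, and 38.0, 29.2 and 41.6 TPM in TMEM216+IGF1. Replicates 1 and 3 of TMEM216+IGF1 were the highest of all 12 libraries, and replicate 2 lay within the range of the other groups. The log2 difference was 0.42 between TMEM216 and Ctrl with IGF1 (SE 0.14, adjusted p 0.171), 0.31 for IGF1 in TMEM216 (SE 0.14, adjusted p 1.00) and 0.45 for the interaction (SE 0.19, adjusted p 0.754). Without Ctrl+IGF1 replicate 3 and TMEM216 replicate 1 these values of UTP15 were 0.32, 0.28 and 0.33. WDR74 then had the larger difference in size between TMEM216 and Ctrl with IGF1 (-0.35). In the averaged contrasts of all libraries UTP15 had 0.19 for TMEM216 (SE 0.10, adjusted p 0.306) and 0.09 for IGF1, and IGF1 in Ctrl gave -0.14 (-0.04 without Ctrl+IGF1 replicate 3).

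UTP20, a scaffold protein of pre-ribosomes, read 19.5, 19.6 and 20.7 TPM in Ctrl, 18.4, 23.8 and 13.4 TPM in Ctrl+IGF1, 14.8, 23.2 and 27.7 TPM in TMEM216, and 23.2, 26.2 and 22.4 TPM in TMEM216+IGF1. Its lowest libraries were again Ctrl+IGF1 replicate 3 and TMEM216 replicate 1. The log2 difference between TMEM216 and Ctrl was 0.38 with IGF1 (SE 0.21, adjusted p 0.406; 0.18 without those libraries) and 0.23 on average (SE 0.15, adjusted p 0.432), and the interaction was 0.30, which turned to -0.15 without them. NOP14, which acts in the small subunit processome, read 90.8, 96.3 and 105 TPM in Ctrl and 65.1, 87.7 and 97.3 TPM in TMEM216, a log2 difference of -0.24 (SE 0.17, adjusted p 0.627) that was -0.07 without the same libraries.

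BYSL, an assembly factor of the small subunit, read 138, 148 and 161 TPM in Ctrl, 149, 171 and 140.0 TPM in Ctrl+IGF1, 123, 139 and 135 TPM in TMEM216, and 135, 127 and 140.1 TPM in TMEM216+IGF1. The ranges of the 6 TMEM216 and 6 Ctrl libraries overlapped in 138 to 140.1 TPM. The log2 difference was -0.19 with IGF1 (SE 0.09, adjusted p 0.326) and -0.18 on average (SE 0.06, adjusted p 0.131); the average passed only after median-of-ratios scaling (adjusted p 0.0481), among the alternatives run. RRP9, a protein of the U3 snoRNP, read 71.4, 64.0 and 65.9 TPM in Ctrl and 74.8, 74.5 and 74.5 TPM in Ctrl+IGF1, without overlap (0.15, SE 0.10, adjusted p 0.673). All 11 small subunit factors had a positive log2 difference for IGF1 in TMEM216, with a median of 0.03, beside 56.1% of all features; none passed the threshold, and 1 had an unadjusted p of at most 0.05. This count rested on TMEM216 replicate 1: without it, 3 of the 11 were positive, with a median of -0.03.

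Among the large subunit factors, WDR74 had the largest difference between TMEM216 and Ctrl with IGF1 and in the interaction, and NIP7 the largest between TMEM216 and Ctrl without IGF1. WDR74 takes part in the processing of pre-ribosomes of the large subunit and read 115, 115 and 120.02 TPM in Ctrl, 148, 132 and 145 TPM in Ctrl+IGF1, 156, 128 and 102 TPM in TMEM216, and 111, 109.9 and 107 TPM in TMEM216+IGF1. Ctrl+IGF1 stood above Ctrl and above TMEM216+IGF1 without overlap, whereas the 3 TMEM216 libraries spread over the whole range. The log2 difference was 0.28 for IGF1 in Ctrl (SE 0.12, adjusted p 0.673), -0.37 between TMEM216 and Ctrl with IGF1 (SE 0.12, 95% interval -0.63 to -0.11, adjusted p 0.168), -0.21 for IGF1 in TMEM216 (SE 0.12, adjusted p 1.00; -0.06 without TMEM216 replicate 1) and -0.48 for the interaction (SE 0.17, adjusted p 0.754). Between TMEM216 and Ctrl with IGF1 it passed without TMEM216 replicate 3 (adjusted p 0.0452), a library outside that comparison that enters the shared spread. Without IGF1 the difference of 0.12 turned to -0.03 without TMEM216 replicate 1; the interaction was -0.32 without Ctrl+IGF1 replicate 3 and TMEM216 replicate 1.

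NIP7, a factor of pre-ribosomal RNA processing whose exons overlap COG8 on the opposite strand, read 90.3, 86.9 and 86.9 TPM in Ctrl, 98.7, 99.2 and 98.8 TPM in TMEM216, and 91.1, 89.9 and 90.3 TPM in TMEM216+IGF1. The TMEM216 libraries lay above both other groups. In Ctrl+IGF1, replicate 1 stood apart at 109 TPM, against 89.0 and 87.3 TPM. The log2 difference between TMEM216 and Ctrl without IGF1 was 0.17 (SE 0.08, adjusted p 0.403), that for IGF1 in TMEM216 -0.13 (SE 0.08, adjusted p 1.00) and the interaction -0.23 (SE 0.11, adjusted p 0.754). The remaining large subunit factors, NOP2, NOP16, BOP1, PES1, WDR12, RRP1B and RRS1, were in no contrast among the 3 largest differences in either direction.

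Of the 6 RNA polymerase I genes, POLR1A, POLR1B, POLR1C and POLR1E encode subunits, UBTF binds the ribosomal DNA and RRN3 brings the polymerase to its promoter. POLR1B read 16.0, 21.6 and 16.1 TPM in Ctrl, 16.0, 25.9 and 13.2 TPM in Ctrl+IGF1, 14.3, 15.9 and 28.8 TPM in TMEM216, and 19.4, 24.4 and 19.5 TPM in TMEM216+IGF1, with no group apart from another. Its log2 difference for TMEM216 averaged over IGF1 was 0.16 (SE 0.19, adjusted p 0.714), and it ranged from 0.01 without TMEM216 replicate 3 to 0.29 without Ctrl+IGF1 replicate 2. POLR1E read 71.8, 74.9 and 63.8 TPM in Ctrl+IGF1 and 75.9, 77.2 and 77.7 TPM in TMEM216+IGF1, without overlap (0.13, SE 0.10, adjusted p 0.538; 0.07 without Ctrl+IGF1 replicate 3), and had a log2 difference of 0.09 for IGF1 on average (SE 0.07, adjusted p 0.903). As a group, the 6 genes had a median log2 difference of 0.07 for TMEM216 averaged over IGF1, 5 of them positive, and 0.01 for IGF1 on average.

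Over the 40 members, the median log2 difference lay between -0.01 and 0.05 in the 7 contrasts. It was 0.05 for TMEM216 without IGF1, against -0.05 for all features, and -0.01 with IGF1, against 0.05. For IGF1 it was 0.00 in Ctrl, against -0.09 for all features, and 0.01 in TMEM216, against 0.02. For the interaction it was 0.02, against 0.11 for all features. Averaged over IGF1, TMEM216 gave 0.02, against 0.00, and IGF1 averaged over cell populations gave 0.01, against -0.03. Positive members numbered 25 of 40 for TMEM216 without IGF1 (38% of all features), 19 with IGF1 (60%), 19 for IGF1 in Ctrl (27.2%) and 22 in TMEM216 (56.1%). They numbered 23 for the interaction (70.2%) and for averaged TMEM216 (49.9%), and 24 for averaged IGF1 (37.6%). Several of these values changed sign with the scaling or with single libraries, and the medians of all features moved as well. After median-of-ratios scaling, the members' median in the interaction was -0.09, with 10 of 40 positive, against 0.00 for all features. The same scaling gave 0.10 for TMEM216 without IGF1 (31 positive), -0.07 with IGF1 (17), 0.08 for IGF1 in Ctrl (31), -0.01 in TMEM216 (16) and 0.04 for averaged IGF1 (31). Under it the medians of all features lay between -0.0049 and 0.0040. Without Ctrl+IGF1 replicate 3 and TMEM216 replicate 1, 6 of 40 members were positive in the interaction (median -0.08, against 0.02 for all features). Positive members then numbered 32 for IGF1 in Ctrl (0.06, against -0.02) and 13 for IGF1 in TMEM216 (-0.03, against -0.003). The share of all features that were positive under these alternatives is not given here. In all 7 contrasts the members' median stayed on the same side of the median of all features under both alternatives. These contrasts share groups of libraries, so their values do not support each other.

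The number of members whose groups did not overlap differed between contrasts and was largest for IGF1 in Ctrl. For TMEM216 without IGF1, 1 member was higher and 1 lower without overlap, where 6.3% and 15.5% of all features were. With IGF1, 2 were higher and 3 lower (12% and 7.69%). For IGF1 in TMEM216, 1 was higher and 2 were lower (6.56% and 3.69%). For IGF1 in Ctrl, 6 were higher (LYAR, NOP56, RRP9, BOP1, WDR74 and RRS1) and 1, NOLC1, was lower, beside 2.72% and 11.8% of all features. None of these 6 had an adjusted p under 0.673, and their largest log2 difference was the 0.28 of WDR74. Their longest transcripts spanned from 1569 bases in LYAR to 2980 in NOP56, against 3967 in NOLC1, and the next paragraphs give how transcript length moved with Ctrl+IGF1 replicate 3. The part of length in these counts was not tested.

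**Figure D3:**
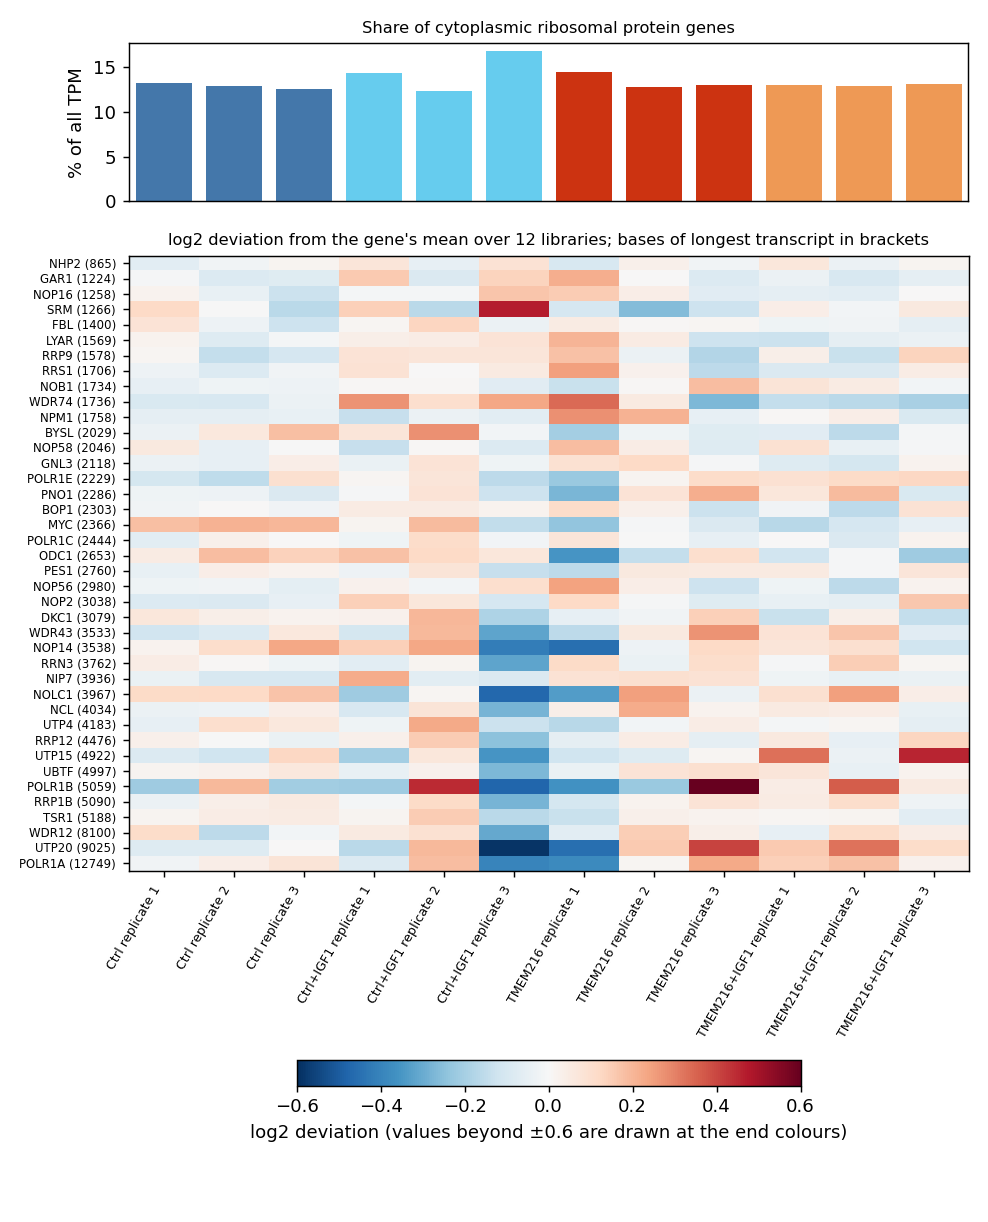
Deviation of each member from its own mean over the 12 libraries on the log2(TPM + 1) scale, in colour, with members ordered by the length of their longest transcript (shortest on top) and, above, the percentage of all TPM in ribosomal protein genes per library. In Ctrl+IGF1 replicate 3, the library with the highest share (16.9%), 11 of 40 members lie above their mean, and in Ctrl+IGF1 replicate 2, with the lowest (12.4%), 33 of 40.

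Single libraries moved many members at once. In Ctrl+IGF1 replicate 3 the members lay on average 0.12 log2 units below their own means over the 12 libraries, with 11 of 40 above, and in Ctrl+IGF1 replicate 2 they lay 0.09 above, with 33 of 40 above. The other 10 libraries stayed within 0.05. The whole table shared the low library: the median feature of Ctrl+IGF1 replicate 3 lay 0.16 below its mean.

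Direction and size varied with transcript length. In Ctrl+IGF1 replicate 3, set against the mean of the other 2 libraries of its group, the 20 members with the longer transcripts (2760 to 12749 bases, longest transcript in GENCODE v29) had a median of -0.29, with 19 of 20 below. The 20 with shorter transcripts (865 to 2653 bases) had a median of -0.02, with 12 of 20 below. In TMEM216 replicate 1 the longer members had a median of -0.15, with 17 of 20 below, and the shorter ones 0.09, with 7 of 20 below. Across the 40 members, which are genes and not replicates, Spearman's rho between length and this deviation was -0.85 in Ctrl+IGF1 replicate 3 and -0.56 in TMEM216 replicate 1, and in Ctrl+IGF1 replicate 2, the library poorest in ribosomal protein transcript, it was 0.76; in the other 9 libraries it lay between -0.42 and 0.52. Over the 12482 tested features with a length, rho was -0.49, -0.31 and 0.46 in these libraries, so the table as a whole showed the same signs. Deviations of libraries in 1 group are taken against each other and are not independent. The members at the ends in Ctrl+IGF1 replicate 3 were SRM (1266 bases, 0.48) and UTP20 (9025 bases, -0.60), the latter level with NOP14 (3538 bases, -0.60). POLR1A, the longest member at 12749 bases, stood at -0.45.

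**Figure D4:**
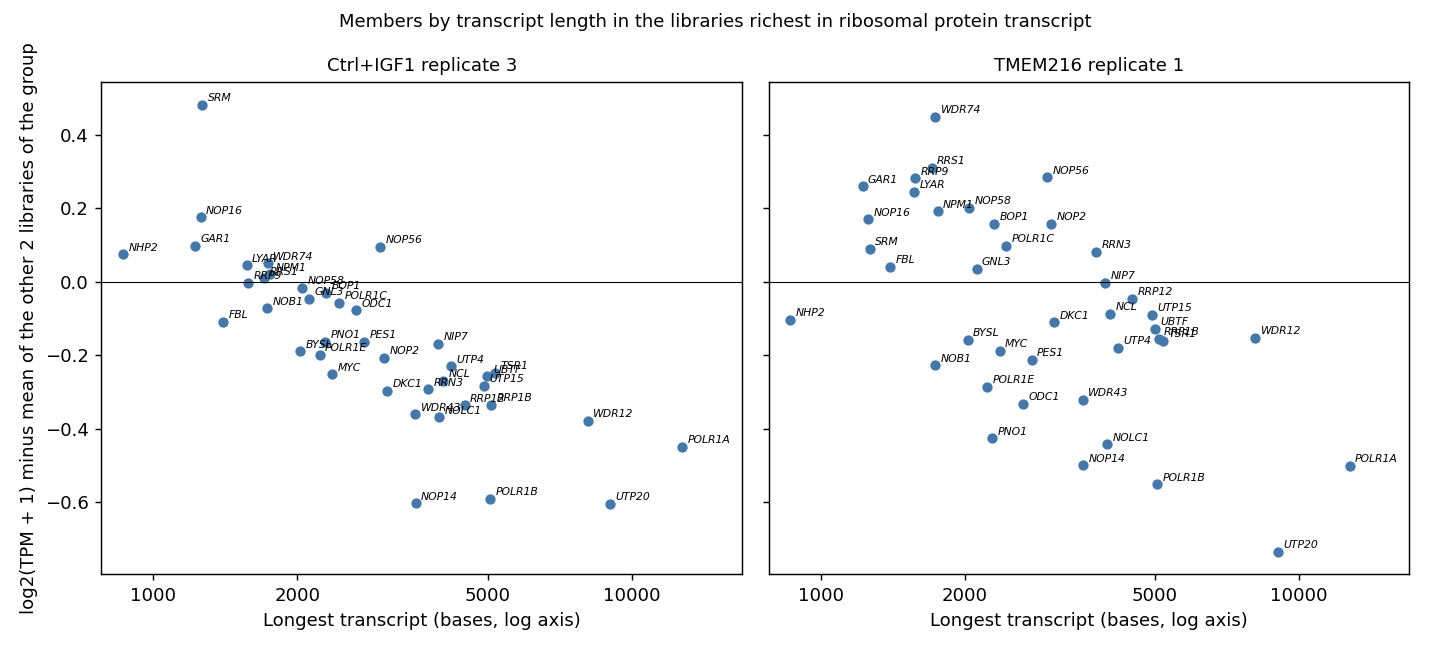
Log2(TPM + 1) of each member in Ctrl+IGF1 replicate 3 (left) and TMEM216 replicate 1 (right) minus the mean of the other 2 libraries of its group, against the length of its longest transcript on a log axis. Long members such as UTP20 and POLR1A lie low in both libraries, and most short members lie near or above 0.

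Members with and without the E-box letters had medians between -0.06 and 0.06. For TMEM216 averaged over IGF1 the 15 members with CACGTG in the window had a median log2 difference of -0.01 and the 17 without it 0.05. Without IGF1 the medians were 0.06 and 0.05, and with IGF1 -0.06 and 0.06, with 5 of 15 and 9 of 17 members positive. For IGF1 on average they were 0.01 and -0.01. In the group with the letters, ODC1 had the lowest value (-0.25) and UTP20 the highest (0.23) of the averaged TMEM216 contrast.

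Other genes of the same programmes gave few calls. Of 85 other ribosome biogenesis genes none passed in any contrast. For TMEM216 averaged over IGF1, limma gave 6 higher and 2 lower at an unadjusted p of at most 0.05, beside 20.1% of all features in either direction. Their median was 0.01, with a range from -0.30 to 0.26. Of 15 other RNA polymerase I genes none passed either, with 1 higher and 1 lower at that level, a median of 0.02 and a range from -0.19 to 0.18. Of 27 other MYC targets, 2 were higher and 0 lower in that contrast, where 2% of all features were higher and 3.21% lower. TMEM97, a regulator of cholesterol handling in the endoplasmic reticulum, read 51.4, 50.3 and 55.3 TPM in Ctrl, 50.8, 51.4 and 47.4 TPM in Ctrl+IGF1, 60.9, 65.9 and 68.5 TPM in TMEM216, and 60.4, 63.7 and 60.4 TPM in TMEM216+IGF1. All 6 TMEM216 libraries lay above all 6 Ctrl libraries, and TMEM97 rose by 0.30 on the log2 scale (SE 0.05, adjusted p 0.00556, and from 0.00207 to 0.0239 over 20 alternatives). LDHA, the lactate dehydrogenase of glycolysis, was also higher (0.22, SE 0.06, adjusted p 0.0440), with 2212 to 2463 TPM in the 6 Ctrl and 2245 to 3130.1 TPM in the 6 TMEM216 libraries. Its call was lost in 14 of 20 alternatives, with adjusted p up to 0.121, among them leaving out any single library except Ctrl+IGF1 replicate 2 or TMEM216 replicate 1.

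In the MAX network, 9 of 11 genes were tested. MXD4, a MAX partner that represses E-box genes, was lower in TMEM216 averaged over IGF1 (-0.25, SE 0.06, adjusted p 0.0328), and the call was lost in 9 of 20 alternatives (up to 0.0913). These include leaving out any single library except Ctrl+IGF1 replicate 2 or 3, TMEM216 replicate 1 or TMEM216+IGF1 replicate 3. It read 21.2, 21.3 and 21.7 TPM in Ctrl, 19.5, 20.2 and 18.0 TPM in Ctrl+IGF1, 17.4, 15.7 and 15.6 TPM in TMEM216, and 17.1, 16.9 and 19.0 TPM in TMEM216+IGF1. Of 10 other polyamine genes, ARG2, the mitochondrial arginase that supplies ornithine, fell by 0.28 in TMEM216 averaged over IGF1 (SE 0.06, adjusted p 0.0133, under the threshold in all 20 alternatives). It read 24.1, 22.9 and 20.9 TPM in Ctrl, 25.2, 25.2 and 25.1 TPM in Ctrl+IGF1, 20.3, 21.8 and 20.4 TPM in TMEM216, and 17.0, 18.5 and 18.7 TPM in TMEM216+IGF1. Without IGF1 the TMEM216 and Ctrl libraries overlapped and the difference did not pass. The interaction of ARG2 was -0.35, which did not pass either. With IGF1 the groups lay apart (-0.46, SE 0.08, adjusted p 0.0145), and the call there was lost in 4 of 21 alternatives, with adjusted p up to 0.110, among them those without replicate 1 or 2 of TMEM216+IGF1 or replicate 1 of Ctrl+IGF1.

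Of the 19 markers of other cell types, 4 were tested and 5 were listed at 0 in all libraries. PECAM1, an endothelial and leukocyte adhesion molecule, differed between TMEM216 and Ctrl with IGF1 (0.68, SE 0.14, limma's adjusted p 0.0324, lost in 12 of 20 alternatives). Averaged over IGF1 its log2 difference was 0.38 (SE 0.10, adjusted p 0.0440, lost in 14 of 19 alternatives). Without IGF1 it was only 0.09 and did not pass. PECAM1 read 0.646 to 1.07 TPM in the 6 Ctrl libraries and 1.08 to 2.15 TPM in the 6 TMEM216 libraries, near the filter of 1 TPM. The summed level of the 19 markers was 207 to 215.5 TPM in Ctrl, 172 to 217 TPM in Ctrl+IGF1, 144 to 199.8 TPM in TMEM216 and 188 to 209 TPM in TMEM216+IGF1, nearly all of it CD68. Without CD68 it was 4.71 to 5.85, 3.47 to 4.20, 4.12 to 5.19 and 5.43 to 5.90 TPM. The part of these transcripts in the results above was not tested.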

How the data were processed

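Total RNA was sequenced from 12 libraries. The values deposited by the authors are TPM, and HISAT2, StringTie and RSEM are named, without versions, per the submitters' processing notes. Build and annotation: not given in the sources used here. TPM is scaled to a fixed total and keeps no depth, so no counting interval is given, and TPM is divided by transcript length, so levels of different genes can be compared.

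The 40 members and the other gene lists were chosen with earlier results of these data known, although the rule for members names genes and uses no measured value. Log2(TPM + 1) was fitted with limma 3.58.1 in R 4.3.3 as 4 groups in 1 fit, moderating the variances along a trend with the mean. The filter asked for 3 or more libraries at 1 TPM or higher and left 13071 features. P-values were two-sided and adjusted by Benjamini and Hochberg over all of them, with a threshold of 0.05. A log2 difference on this scale understates low genes. SE is limma's moderated standard error. The fit was tested on simulated data. Contrasts were TMEM216 within each IGF1 condition, IGF1 within each cell population, their interaction and both averages.

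MYC is given in full, with every member past the threshold and the 3 largest differences in each direction of each contrast; of other lists, those past the threshold. NCL, NOP56, FBL, POLR1A, WDR12 and others named by level, overlap or length were chosen after their values were seen. Alternatives were another pseudocount (0.1), the filter removed or raised to 5 TPM, median-of-ratios scaling, quantile normalization, no trend, only the libraries compared, a replicate block, each library left out, and Ctrl+IGF1 replicate 3 and TMEM216 replicate 1 left out together. Exons of GNL3, NHP2, NIP7, NOP16, PES1, PNO1, POLR1C, TSR1, UTP15, UTP4 and WDR12 overlap a tested gene on the opposite strand in GENCODE v29. Strandedness is unknown here, so it is not known whether reads in the overlaps were told apart from those of the partner. The R package data.table (version 1.17.8) and Python 3.11.15 with pandas 2.3.3, numpy 2.4.6, scipy 1.17.1 and matplotlib 3.10.9 were used.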

Additional observations from a re-analysis of the deposited data

How the results depend on the processing

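No member was called in 5 of the 7 contrasts under any alternative run. For TMEM216 averaged over IGF1 the count of members called was 2 after quantile normalization (MYC and ODC1), 2 after median-of-ratios scaling (MYC and BYSL), 1 when both TMEM216 replicate 1 and Ctrl+IGF1 replicate 3 were dropped (MYC), and 0 to 2 with each library left out (2 without TMEM216 replicate 3, NPM1 higher and ODC1 lower; 1 without Ctrl+IGF1 replicate 3, MYC). For TMEM216 with IGF1 it was 0 to 1 with each library left out (WDR74 without TMEM216 replicate 3). Differences near 0 changed sign: MYC for IGF1 in TMEM216 was -0.00590 after quantile normalization, -0.0154 after median-of-ratios scaling, -0.0568 without both libraries and -0.0568 to 0.0566 with each library left out. UTP20 in the interaction was -0.15 without both libraries. WDR74 for TMEM216 without IGF1 was -0.0340 without both libraries and -0.0340 to 0.272 with each library left out. The cause was not tested. With the replicate number as a block, 0 members were called in every contrast. Over all features the block gave 77 calls for TMEM216 without IGF1 and 140 with it, against 143 and 211, and a fit of only the libraries compared gave 49 and 49. Leaving out single libraries gave 43 to 273 and 84 to 462, and 392 to 906 for averaged TMEM216, against 682; dropping both libraries gave 288 without IGF1 and 1061 on average. For IGF1 and the interaction, no alternative gave more than 11 calls. Whether the replicate numbers pair the libraries could not be decided. Of 18 same-numbered pairs of deviations from group means, 4 correlated above 0.1 (-0.29 to 0.17), against 6 of 36 pairs with different numbers. Deviations within a group of 3 are taken against each other, so these correlations cannot exclude a pairing. TPM holds no depth, so depth limits could not be computed.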
